A study of Mus musculus with 12 samples.

Results

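The genes described are 10 that mark T cells and cytotoxic lymphocytes, namely Cd3d, Cd3e, Cd3g, Cd4, Cd8a, Cd8b1, Gzma, Gzmb, Itgae and Foxp3. They were chosen by symbol from the 17734 genes of the expression table, by a rule that uses no measured value although earlier results of these data were known, and all 10 were found. RNA of the rectum was sequenced in bulk from 12 adult male C57BL/6 mice, 3 in each of 4 groups, to ask how colitis and the plant alkaloid berberine (BBR) alter gene expression. Normal mice drank water, and colitis mice drank 2.5% dextran sulfate sodium (DSS), a polymer that injures the colonic epithelium, for 7 days. Normal mice receiving BBR drank water, colitis mice receiving BBR drank DSS, and both were given BBR at 100 mg/kg by gavage. The treatment protocol gives 6 days of BBR, whereas the sample labels write 7 days beside each treatment. The study's methods describe daily gavage up to day 7. All mice were 8 to 10 weeks old, and the labels give no genotype beyond the strain. The samples call the tissue colorectum and the study's methods call it rectum. DSS colitis starts with damage to the epithelium and is known to develop in mice without T cells, which limits what it models of T cell responses.

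T cells recognise antigen through a receptor whose signal is carried by the CD3 chains, encoded by Cd3d, Cd3e and Cd3g. The coreceptor CD4 marks helper and regulatory T cells and binds MHC class II, while CD8, a pair of chains encoded by Cd8a and Cd8b1, marks cytotoxic T cells and binds MHC class I. Granzymes A and B, encoded by Gzma and Gzmb, are proteases that cytotoxic T cells and natural killer cells release to kill target cells. Itgae encodes CD103, the integrin chain that holds lymphocytes of the gut epithelium to E-cadherin, and Foxp3 encodes the transcription factor that defines regulatory T cells. Several of these genes are not confined to T cells: mouse dendritic cells can carry CD4, CD8α or CD103, and many T cells of the gut epithelium carry CD8α without CD8β.

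The levels were taken to be fragments per kilobase of transcript scaled to the mapped reads of each library (FPKM), so that they can be compared between genes. The members were scarce transcripts in whole tissue. Their means over the 12 mice ran from 0.0617 FPKM for Foxp3 to 3.04 FPKM for Gzma, and even for Gzma only 46.1% of the genes in the table had a lower mean. Cd3g (1.70 FPKM), Cd4 (1.06 FPKM) and Gzmb (0.983 FPKM) came after Gzma. Cd3d (0.783 FPKM), Itgae (0.682 FPKM), Cd3e (0.476 FPKM), Cd8a (0.459 FPKM) and Cd8b1 (0.187 FPKM) were lower. The reads behind a value were estimated from the spacing of the smallest values in each mouse, which implied library depths of 13300000 to 19600000 reads. A median of 30.4 reads then stood behind a Gzma value, 38.8 behind Cd4, 20.8 behind Cd3g, 4.2 behind Cd8b1 and 1.7 behind Foxp3. At this depth Cd8b1 had fewer than 3 estimated reads in 5 of 12 mice and Foxp3 in 7 of 12. Of the members, 9 had a mean of at least 0.1 FPKM and were tested among 15315 genes, and Foxp3 was not tested.

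The tissue carried colon epithelium in every mouse, with 10 epithelial markers summing to 9900 to 17600 FPKM, and little squamous epithelium, with 5 markers summing to 0.84 to 3.34 FPKM. The 4 mice numbered 4, 1 in each group, stood apart from the others. Their values summed to 482194 to 504337 over all genes, against 696286 to 765876 in the other 8 mice, and the median of the members is therefore also given for the mice numbered 1 to 3 alone. What these numbers stand for is not given in the sources used here.

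Promoters of 7 members were found in the RefSeq promoter table of the build GRCm38.p6, which holds 250 bases before to 50 bases after each start site. The expression values rest on the older build mm9, so these positions belong to the promoter table alone. Of the members in the table, 4 are shown: Cd3g and Cd3d, whose start sites lie 1355 bases apart on opposite strands of chromosome 9 and whose levels are compared below, and the granzymes Gzma and Gzmb, the member with the highest level and the member whose 3 normal mice lay closest together. Cd3g lies at chr9:44980382-44980681 on the minus strand and Cd3d at chr9:44981536-44981835 on the plus strand. Gzma lies at chr13:113100932-113101231 and Gzmb at chr14:56262285-56262584, both on the minus strand. Each sequence is written 5′ to 3′ on the gene's strand, with capitals for matches on either strand to 5 short motifs. These are the RUNX letters TGTGGT, the ETS letters AGGAAG, the E-box letters CAGGTG, the GATA letters AGATAA and the TATA letters TATAAA.
Cd3g: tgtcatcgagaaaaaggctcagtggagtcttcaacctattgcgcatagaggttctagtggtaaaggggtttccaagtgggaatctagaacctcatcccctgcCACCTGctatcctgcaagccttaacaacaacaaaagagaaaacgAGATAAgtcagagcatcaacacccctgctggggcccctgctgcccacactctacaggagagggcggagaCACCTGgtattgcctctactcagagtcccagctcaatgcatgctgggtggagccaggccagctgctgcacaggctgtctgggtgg
Cd3d: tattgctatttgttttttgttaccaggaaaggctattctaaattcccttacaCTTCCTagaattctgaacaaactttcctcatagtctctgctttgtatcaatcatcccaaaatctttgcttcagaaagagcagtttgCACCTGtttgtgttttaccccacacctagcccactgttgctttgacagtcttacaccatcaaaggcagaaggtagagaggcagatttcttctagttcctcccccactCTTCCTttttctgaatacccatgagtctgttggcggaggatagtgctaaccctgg
Gzma: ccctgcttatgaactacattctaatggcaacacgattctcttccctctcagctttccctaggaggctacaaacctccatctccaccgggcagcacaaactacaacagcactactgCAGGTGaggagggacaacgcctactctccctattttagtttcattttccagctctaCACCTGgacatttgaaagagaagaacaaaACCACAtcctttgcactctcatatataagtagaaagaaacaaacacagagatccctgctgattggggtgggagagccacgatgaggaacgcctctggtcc
Gzmb: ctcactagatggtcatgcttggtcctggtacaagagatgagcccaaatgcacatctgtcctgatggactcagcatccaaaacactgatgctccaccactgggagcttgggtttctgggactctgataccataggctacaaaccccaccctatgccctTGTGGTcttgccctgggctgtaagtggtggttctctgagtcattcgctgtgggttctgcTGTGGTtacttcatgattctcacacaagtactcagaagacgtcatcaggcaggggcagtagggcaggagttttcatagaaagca
Although transcribed away from each other, Cd3g and Cd3d did not hold the same motifs. The Cd3g window held the E-box letters 2 times and the GATA letters 1 time, and the Cd3d window the ETS letters 2 times and the E-box letters 1 time. Cd3e, on chromosome 9 as well, with its start 27825 bases from that of Cd3d, resembled Cd3d in this respect with 2 ETS matches and 1 E-box match. Gzma held 1 RUNX match and 2 E-box matches, whereas Gzmb held 2 RUNX matches and no other. The Cd8a window held none of the 5 motifs. Over 32851 promoters of the same length, RUNX letters were present in 16.8%, ETS in 35.4%, E-box in 20.2%, GATA in 11.2% and TATA in 13.6%. A match is a stretch of letters and not a measured binding site, and no matches overlapped in the windows shown.

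**Figure D1:**
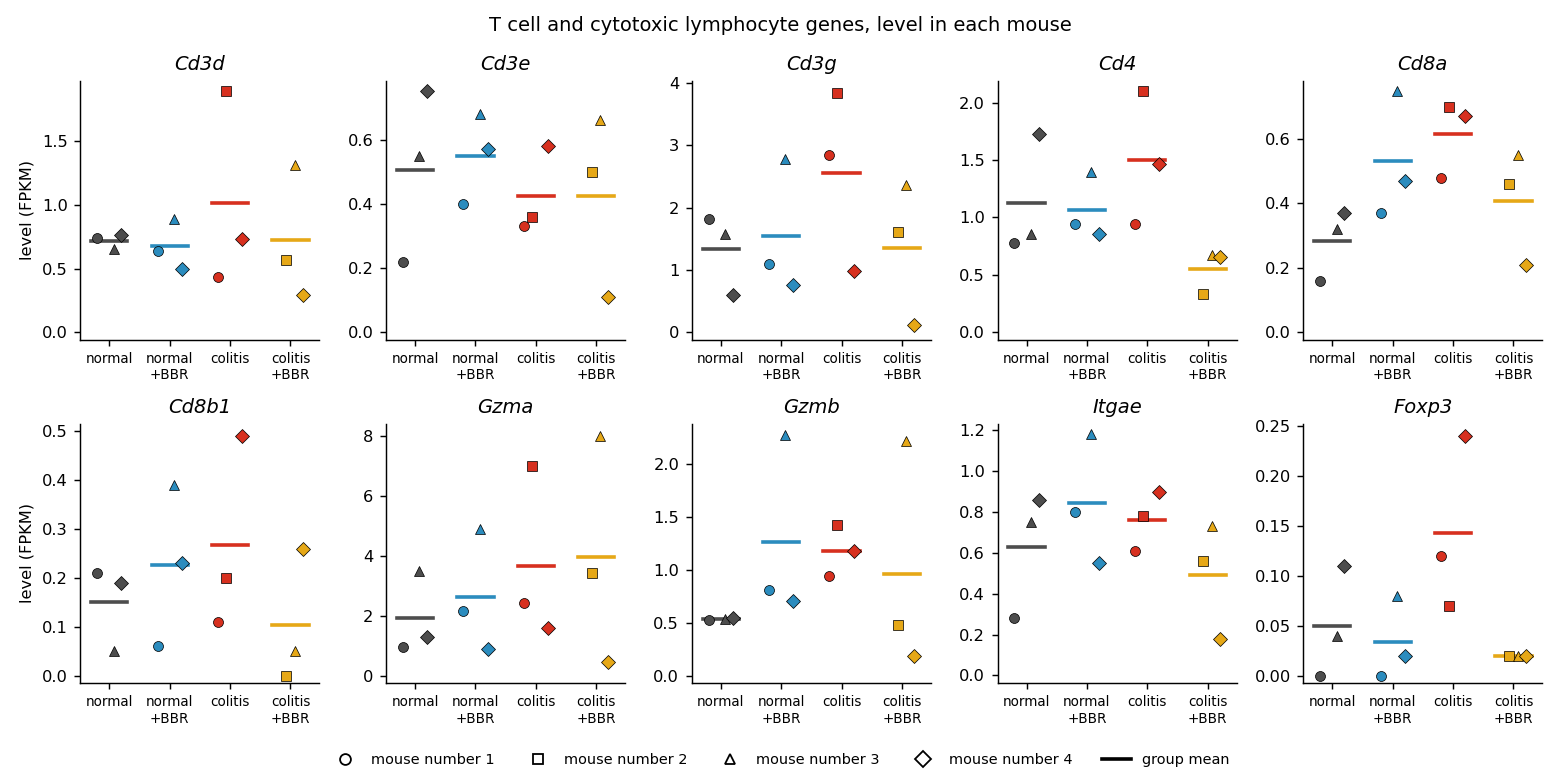
Level of each of the 10 members in FPKM (vertical axis) in normal mice, normal mice receiving BBR, colitis mice and colitis mice receiving BBR. Each point is 1 mouse, its shape is the mouse number and the bar is the mean of 3 mice. Groups overlapped for most members, while Cd4 was lowest in colitis mice receiving BBR (0.33 to 0.67 FPKM) and Cd3g was lowest in the mouse numbered 4 of every group.

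The receptor chains differed widely between mice of the same group, save for Cd3d in normal mice. Cd3g stood at 1.82, 1.58 and 0.60 FPKM in normal mice, at 2.84, 3.84 and 0.99 FPKM in colitis mice, at 1.09, 2.78 and 0.76 FPKM in normal mice receiving BBR and at 1.60, 2.36 and 0.11 FPKM in colitis mice receiving BBR. The last value in each group is that of mouse 4, and it was the lowest of its group in 4 of 4 groups. Cd3d stood at 0.74, 0.65 and 0.76 FPKM in normal mice, at 0.43, 1.89 and 0.73 FPKM in colitis mice, at 0.64, 0.89 and 0.50 FPKM in normal mice receiving BBR and at 0.57, 1.31 and 0.29 FPKM in colitis mice receiving BBR. Normal mice lay within a narrow range for Cd3d, and colitis mouse 2 was high. Cd3e stood at 0.22, 0.55 and 0.75 FPKM in normal mice, at 0.33, 0.36 and 0.58 FPKM in colitis mice, at 0.40, 0.68 and 0.57 FPKM in normal mice receiving BBR and at 0.50, 0.66 and 0.11 FPKM in colitis mice receiving BBR. All groups overlapped for the 3 chains, and 1 mouse, colitis mouse 4 receiving BBR, was the lowest of 12 for each of them.

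The CD3 chains are assembled into 1 complex, yet their transcript levels did not keep a fixed ratio. The ratio of Cd3g to Cd3e was 0.80 to 1.71 in the 4 mice with that number, against 2.73 to 10.7 in the other 8, so that the ranges did not overlap. Cd3g to Cd3d behaved likewise, at 0.379 to 1.52 against 1.70 to 6.60, although the start sites of both genes lie close together on chromosome 9. The ratio of Cd3d to Cd3e, at 0.877 to 2.64 against 1.14 to 5.25, overlapped between these mice. Both ratios of Cd3g were thus lowest in mouse 4 of all 4 groups. In colitis mouse 4 receiving BBR, Cd3g rested on 2.0 and Cd3e on 2.9 estimated reads, each fewer than 3. A factor applied to all values of a mouse cancels in such ratios, and why they were lower in the mice numbered 4 was not tested.

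**Figure D2:**
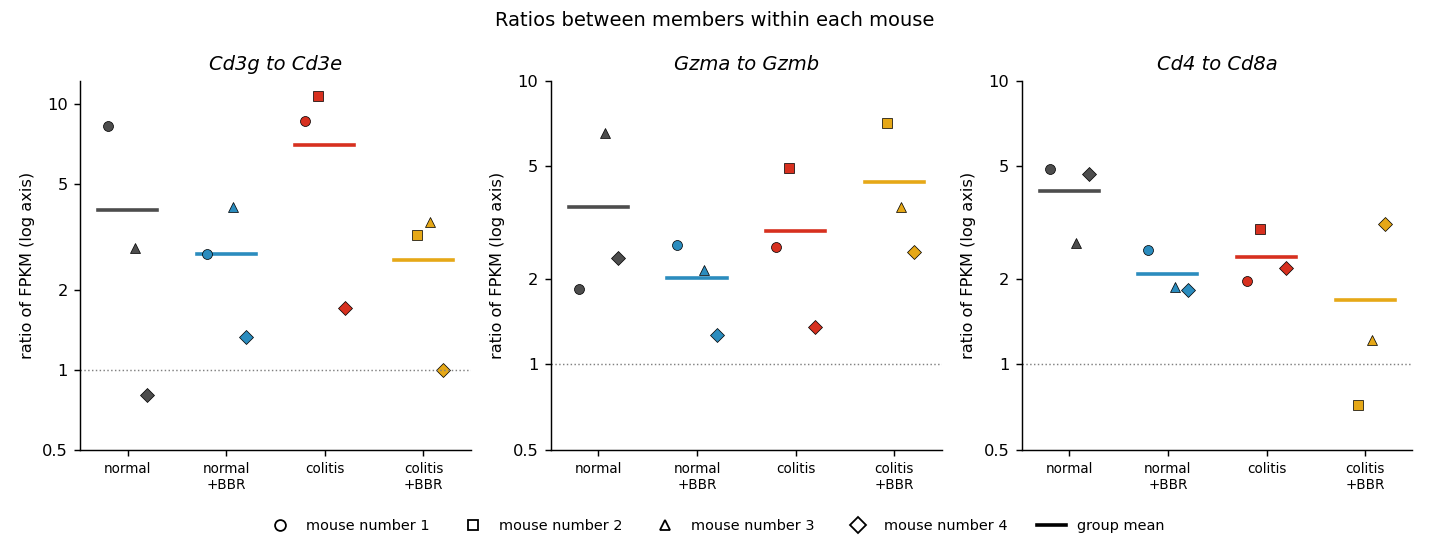
Ratio of the FPKM of Cd3g to Cd3e, Gzma to Gzmb and Cd4 to Cd8a within each mouse (vertical log axes) by group. Each point is 1 mouse, its shape is the mouse number, the bar is the group mean and the dotted line marks equal levels. Cd3g to Cd3e lay below 2 in every mouse numbered 4 (diamonds) and above 2.7 in all others, and Gzma exceeded Gzmb in all 12 mice.

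The coreceptor genes included the clearest difference between groups. Cd4 stood at 0.78, 0.86 and 1.73 FPKM in normal mice, at 0.94, 2.10 and 1.47 FPKM in colitis mice, at 0.94, 1.40 and 0.86 FPKM in normal mice receiving BBR and at 0.33, 0.67 and 0.66 FPKM in colitis mice receiving BBR. Each of the 3 colitis mice receiving BBR was below all 9 other mice. Cd8a stood at 0.16, 0.32 and 0.37 FPKM in normal mice, at 0.48, 0.70 and 0.67 FPKM in colitis mice, at 0.37, 0.75 and 0.47 FPKM in normal mice receiving BBR and at 0.46, 0.55 and 0.21 FPKM in colitis mice receiving BBR. The 3 colitis mice were all above the 3 normal mice. Cd8b1 stood at 0.21, 0.05 and 0.19 FPKM in normal mice, at 0.11, 0.20 and 0.49 FPKM in colitis mice, at 0.06, 0.39 and 0.23 FPKM in normal mice receiving BBR and at 0, 0.05 and 0.26 FPKM in colitis mice receiving BBR. All groups overlapped for Cd8b1, and a count of 3 reads would correspond to 0.107 to 0.157 FPKM. Cd4 exceeded Cd8a in 11 of 12 mice, the exception being colitis mouse 2 receiving BBR with a ratio of 0.717. Cd8b1 exceeded Cd8a in only 2 of 12 mice.

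The cytotoxic granule genes varied widely between mice. Gzma stood at 0.96, 3.47 and 1.28 FPKM in normal mice, at 2.43, 6.98 and 1.59 FPKM in colitis mice, at 2.14, 4.87 and 0.89 FPKM in normal mice receiving BBR and at 3.42, 8.0 and 0.45 FPKM in colitis mice receiving BBR. The highest and the lowest value of all 12 mice both came from colitis mice receiving BBR. Gzmb stood at 0.52, 0.53 and 0.54 FPKM in normal mice, at 0.94, 1.42 and 1.18 FPKM in colitis mice, at 0.81, 2.27 and 0.70 FPKM in normal mice receiving BBR and at 0.48, 2.22 and 0.18 FPKM in colitis mice receiving BBR. Both colitis mice and normal mice receiving BBR were above the normal mice throughout, whereas colitis mice receiving BBR lay on both sides of them. Gzma exceeded Gzmb in all 12 mice, by 1.27 to 7.12 times. Gzmb belongs to a family of closely related granzymes, and how reads shared between such genes were divided could alter its level.

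Itgae and Foxp3 stand for resident and regulatory cells. Itgae stood at 0.28, 0.75 and 0.86 FPKM in normal mice, at 0.61, 0.78 and 0.90 FPKM in colitis mice, at 0.80, 1.18 and 0.55 FPKM in normal mice receiving BBR and at 0.56, 0.73 and 0.18 FPKM in colitis mice receiving BBR. The groups overlapped for Itgae. Foxp3 stood at 0, 0.04 and 0.11 FPKM in normal mice, at 0.12, 0.07 and 0.24 FPKM in colitis mice, at 0, 0.08 and 0.02 FPKM in normal mice receiving BBR and at 0.02 FPKM in each of the 3 colitis mice receiving BBR. Colitis mice all had more Foxp3 than colitis mice receiving BBR, but a level of 0.02 FPKM corresponds to about 1 read. Summed over the group, the estimate was 28 reads in colitis mice and 3 in colitis mice receiving BBR. Scaled for depth, the second was 0.112 times the first, with an exact 95% interval of 0.0218 to 0.362 that covers counting error only. Colitis mouse 4 held 18 of the 28 reads, and without it the ratio was 0.184 (0.0326 to 0.715).

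Colitis was compared with the normal state first, with limma on log2(FPKM + 0.1), a scale that understates the change of low genes. Cd8a, the coreceptor chain of cytotoxic T cells, averaged 0.283 ± 0.110 FPKM (SD, n = 3) in the normal group and 0.617 ± 0.119 FPKM (SD, n = 3) in the colitis group. Gzmb averaged 0.530 ± 0.01 and 1.18 ± 0.240 FPKM (SD, n = 3 each). These were the members whose groups did not overlap, 2 of 9 and both higher in colitis, while 7.1% of all tested genes had separate groups with colitis higher and 29.3% had separate groups in either direction. In bulk tissue, a change in the number of cells of a type and a change in RNA per cell cannot be told apart. For Cd8a the log2 difference was 0.93 (SE 0.41), with an unadjusted P of 0.0406 and an adjusted p of 0.214 by limma. For Gzmb it was 1.01 (SE 0.66, adjusted p = 0.368 by limma). With the smallest p that 3 mice against 3 allow, the exact two-sided permutation test gave p = 0.1 for both genes.

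No member changed in colitis by the adjusted test: 0 of 9 passed the limit of 0.05 by limma, which 1.08% of all tested genes did, and adjusted p-values ran from 0.214 to 0.891. At the unadjusted limit of 0.05 used by the study, Cd8a alone passed, 1 of 9, beside 21.4% of all tested genes, or 5.56% with colitis higher. Its unadjusted P by limma lay past the limit on leaving out normal mouse 1 (0.161), normal mouse 3 (0.0559), colitis mouse 2 (0.0988) or colitis mouse 4 (0.0915). In direction, 8 of 9 members were higher in colitis, where 26.2% of all tested genes were. The median log2 difference of the members was 0.49, and that of all genes was -0.32. After quantile normalization these were 0.86 and -0.05, and after centring on the median 0.82 and 0.02, with 9 of 9 members higher in both. The log2 differences were 0.83 (SE 0.87) for Cd3g, 0.85 (SE 0.94) for Gzma, 0.41 (SE 0.42) for Cd4 and 0.49 (SE 0.60) for Cd8b1. They were 0.34 (SE 0.49) for Itgae, 0.23 (SE 0.54) for Cd3d and -0.13 (SE 0.52) for Cd3e, and each of these 7 was smaller than its SE. For the mice numbered 1 to 3 alone the median of the members was 0.72 beside -0.42 for all genes.

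Markers of all leukocytes had higher sums in colitis mice, which were not tested. The 7 markers of all leukocytes summed to 57.6 to 66.7 FPKM in the normal mice, and 68.0 to 212 FPKM in the mice with colitis, with none of the markers at 0. Ptprc, which encodes the leukocyte antigen CD45, stood at 1.75, 2.83 and 4.12 FPKM in the normal mice, and at 3.61, 7.20 and 3.61 FPKM in the mice with colitis, with a log2 difference of 0.71 (SE 0.44, adjusted p = 0.343 by limma). Set against Ptprc of the same mouse, 4 of 9 members were higher and 5 lower in colitis, with a median log2 difference of -0.22, which ran from -0.49 to 0.09 on leaving out 1 mouse. For Cd8a the difference relative to Ptprc was 0.22 (exact permutation p = 0.5), and for Gzmb it was 0.29 (exact permutation p = 0.6). Set against Ptprc, 0 of 9 members had separate groups, beside 2.16% of all tested genes higher and 31.7% lower. Macrophage and monocyte markers summed to 150 to 198 FPKM in the normal mice, and 223 to 692 FPKM in the mice with colitis, and granulocyte markers to 262 to 708 and 602 to 4190 FPKM. Smooth muscle markers summed to 1980 to 3520 and 89.9 to 802 FPKM, and B cell and follicle markers to 8.26 to 32.8 and 21.8 to 145 FPKM. On the log2 scale 3 of the 11 B cell and follicle markers were higher in colitis and 8 lower, with a median of -0.19. Cxcl13, which was higher, was the only one of them at the unadjusted limit of limma. The part of these cell types in the differences of the members was not tested.

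**Figure D3:**
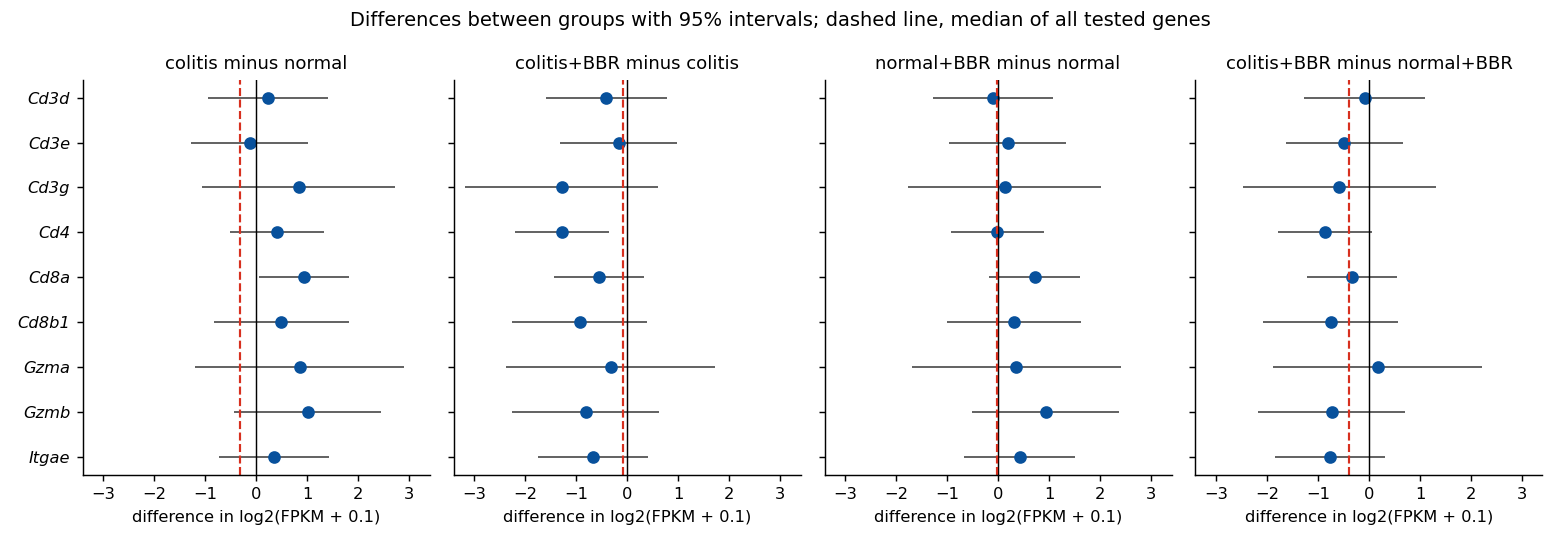
Difference between groups in log2(FPKM + 0.1) for the 9 tested members (horizontal axis) in 4 comparisons. Points are limma estimates, lines are unadjusted 95% intervals, and the dashed line is the median of all 15315 tested genes. Cd8a lay above 0 in colitis against normal (0.05 to 1.82) and Cd4 below 0 in colitis with BBR against colitis (-2.20 to -0.36), and the other intervals included 0.

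BBR was then compared within colitis mice. Cd4, the coreceptor of helper and regulatory T cells, averaged 1.5 ± 0.581 FPKM (SD, n = 3) in colitis mice and 0.553 ± 0.193 FPKM (SD, n = 3) in colitis mice receiving BBR. The log2 difference was -1.28 (SE 0.42), with an unadjusted P of 0.0105 and an adjusted p of 0.568 by limma, and the exact permutation test gave p = 0.1, its smallest value. Among the tested members, Cd4 was the 1 of 9 whose groups did not overlap, as was the case for 7.08% of all tested genes, or 5.66% in the lower direction. It was also the 1 of 9 that passed the unadjusted limit, beside 6.39% of all tested genes, or 5.2% in the lower direction. Cd4 itself passed it in the main fit and all alternatives of the limma fit, 18 of 18, with P between 0.00559 and 0.048. By adjusted p, 0 of 9 members passed in the limma fit, as did 0.0% of all tested genes.

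The other members had the same sign with wide intervals. On the log2 scale all 9 tested members were lower when colitis mice received BBR, with a median difference of -0.68, while 38.0% of all tested genes were higher and the median of all genes was -0.09. After quantile normalization 8 of 9 were lower, with medians of -0.48 and 0.04. The log2 differences were -1.28 (SE 0.87) for Cd3g, -0.93 (SE 0.60) for Cd8b1, -0.81 (SE 0.66) for Gzmb and -0.68 (SE 0.49) for Itgae. They were -0.55 (SE 0.41) for Cd8a, -0.42 (SE 0.54) for Cd3d, -0.32 (SE 0.94) for Gzma and -0.16 (SE 0.52) for Cd3e. The direction depended on the scale for 2 of them, since the mean FPKM was 3.67 and 3.96 for Gzma and 0.423 in both groups for Cd3e, without and with BBR. The common sign rested in part on 1 animal. Colitis mouse 4 receiving BBR was the lowest of 12 for Cd3d, Cd3e, Cd3g, Gzma, Gzmb and Itgae, and its 10 members summed to 2.47 FPKM against 5.55 to 18.3 FPKM in the other 11 mice. Without it the log2 difference was -0.19 for Cd3g, -0.12 for Gzmb and -0.21 for Itgae, but -1.45 for Cd8b1. It turned above 0 for Cd3d (0.02), Cd3e (0.40) and Gzma (0.78), so that the common sign was lost. For the mice numbered 1 to 3 alone, the median was -0.12 beside -0.13 for all genes, with 2 members higher and 7 lower. Gzma then differed by 0.34 and Cd3e by 0.60, both higher with BBR, while Cd4 was still lower, with a log2 difference of -1.39 and an unadjusted limma P of 0.025.

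Several leukocyte lists had lower sums beside Cd4. The markers of all leukocytes summed to 68.0 to 212 FPKM in colitis mice and 29.5 to 94.0 FPKM in colitis mice receiving BBR. Macrophage and monocyte markers summed to 223 to 692 and 119 to 250 FPKM, and the 8 dendritic cell markers to 3.54 to 5.39 and 1.22 to 4.04 FPKM, with none of them at 0 in every mouse, and these groups overlapped. Without overlap, B cell and follicle markers summed to 21.8 to 145 and 9.89 to 19.6 FPKM, and mast cell markers to 16.2 to 25.4 and 7.87 to 12.6 FPKM. Granulocyte markers summed to 602 to 4190 and 491 to 2950 FPKM, with medians of 1900 and 2090 FPKM, and markers of natural killer and innate lymphoid cells to 45.9 to 62.1 and 40.2 to 75.5 FPKM. Gene by gene on the log2 scale, 7 of 8 tested granulocyte markers were lower with BBR and 1 higher (median -1.37). For natural killer and innate lymphoid cells, 5 of 6 tested markers were lower and 1 higher (median -0.79). Ptprc stood at 2.62, 3.81 and 1.38 FPKM in colitis mice receiving BBR, a log2 difference of -0.89 (SE 0.44, adjusted p = 0.826 by limma). Relative to Ptprc, 6 of 9 members lay above 0 and 3 below it, and the median log2 difference was 0.22, from -0.09 to 0.49 on leaving out 1 mouse. Cd4 relative to Ptprc differed by -0.39 (exact permutation p = 0.5), which did not exceed the spread between mice. The part of myeloid, dendritic, B and mast cells in the Cd4 difference was not tested. Smooth muscle markers summed to 3840 FPKM in colitis mouse 4 receiving BBR and to 562 to 604 FPKM in the other 2 mice of that group. That mouse had the lowest sum of the members, but its B cell and follicle markers had the highest sum of its group (19.6 FPKM). Whether its muscle transcripts took part in its low members was not tested.

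**Figure D4:**
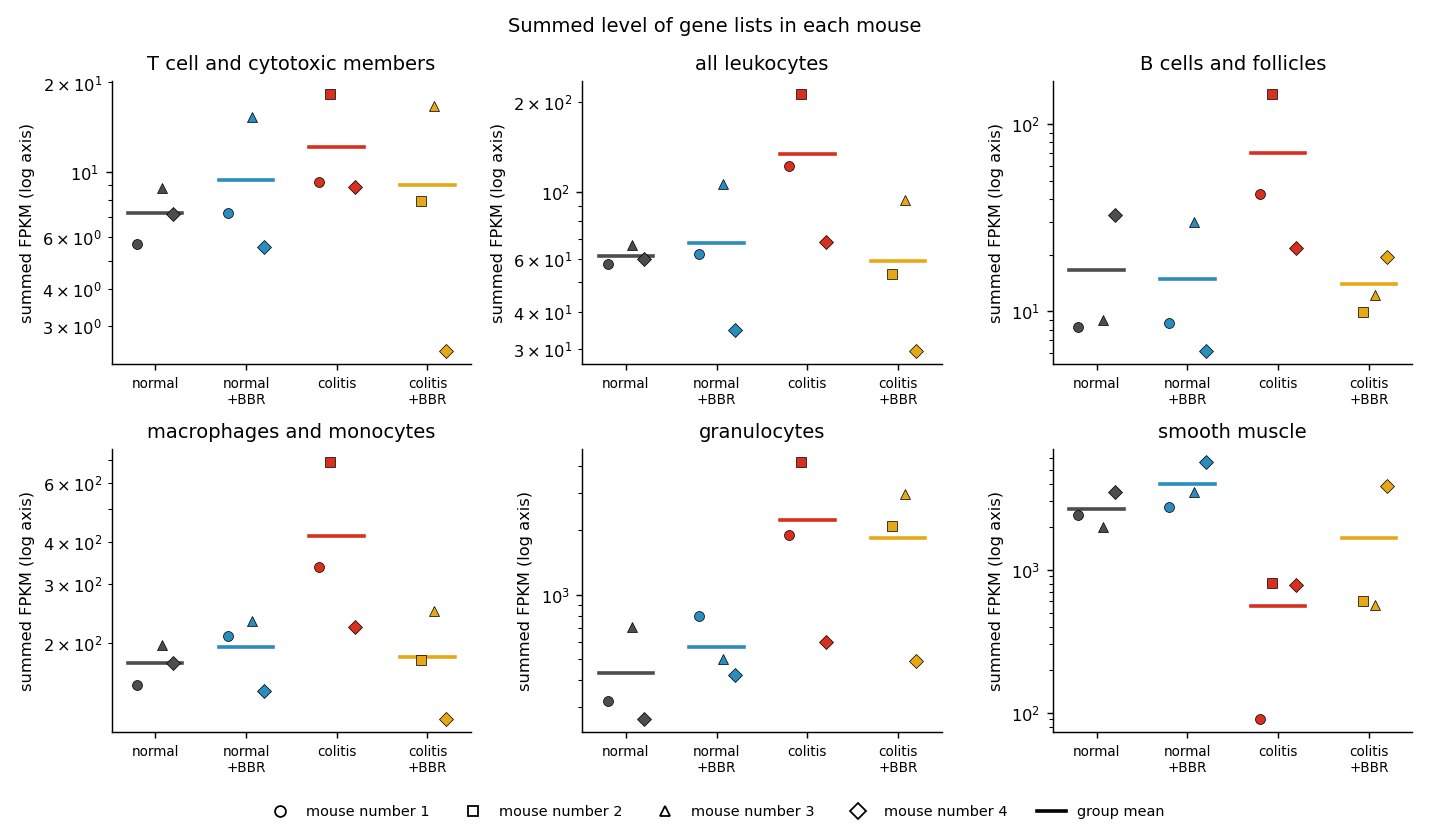
Summed FPKM of the 10 members and of 5 marker lists in each mouse (vertical log axes) by group. Each point is 1 mouse, its shape is the mouse number and the bar is the group mean. Colitis mouse 2 had the highest sum of members (18.3 FPKM) and of all leukocyte, B cell and macrophage markers, and colitis mouse 4 receiving BBR the lowest sum of members (2.47 FPKM).

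In normal mice, no member passed the adjusted or the unadjusted limit with BBR, while Gzmb was higher in all 3 mice receiving BBR than in the normal mice. Gzmb averaged 1.26 ± 0.876 FPKM (SD, n = 3) with BBR, a log2 difference of 0.93 (SE 0.66, adjusted p = 1.0 by limma, exact permutation p = 0.1), and the mean rested on mouse 3, with 2.27 FPKM against 0.81 and 0.70 FPKM. It was the 1 of 9 members with separate groups, beside 9.62% of all tested genes, or 4.17% in the higher direction. By limma 0 of 9 members passed the adjusted limit, as did 0.0% of all genes, and 0 of 9 passed the unadjusted limit, beside 1.36% of all genes. In direction 7 of 9 members were higher, as were 45.8% of all genes, with a median log2 difference of 0.31 beside -0.02 for all genes. For the mice numbered 1 to 3 alone all 9 were higher, with a median of 0.45 beside 0.0 for all genes. Cd8a differed by 0.72 (SE 0.41), from 0.283 ± 0.110 to 0.530 ± 0.197 FPKM (SD, n = 3 each), and was higher with BBR in 3 of 3 pairs of mice with the same number. Relative to Ptprc, which differed by only 0.10, Cd8a was the 1 of 9 members with separate groups. It was higher in all 3 mice receiving BBR than in any normal mouse, by 0.62 on the log2 scale (exact permutation p = 0.1), while 0.307% of all tested genes set against Ptprc were separate and higher and 2.58% separate and lower. Cd4 (-0.02, SE 0.42), Cd3g (0.13, SE 0.87) and Cd3d (-0.10, SE 0.54) lay near 0 in log2 difference, with 95% intervals of -0.93 to 0.90, -1.76 to 2.02 and -1.28 to 1.08.

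Colitis under BBR was compared with BBR alone, a contrast that shares no mouse with colitis against normal. Cd4 was again the member with separate groups, 1 of 9, beside 20.2% of all tested genes, or 18.0% in the lower direction. It averaged 1.07 ± 0.291 FPKM (SD, n = 3) with BBR alone, and the log2 difference was -0.86 (SE 0.42, adjusted p = 0.27 by limma). In the limma fit 0 of 9 members passed the adjusted limit, beside 0.0392% of all genes, and 0 of 9 the unadjusted limit, beside 19.7%. The median log2 difference of the members was -0.58, with 1 of 9 higher and 8 lower, and that of all genes was -0.40, with 19.9% of them higher. After quantile normalization the medians were -0.06 and -0.03, with 4 members higher and 5 lower. For the mice numbered 1 to 3 alone they were -0.07 and -0.55, again with 4 members higher and 5 lower. Ptprc differed by -0.28 (SE 0.44), and relative to it 2 of 9 members lay above 0 and the median was -0.31. Cd8a and Gzmb, which were higher in colitis mice without BBR, differed here by -0.34 (SE 0.41) and -0.73 (SE 0.66).

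Whether the effect of BBR differed between colitis and normal mice was tested as an interaction, for which values below 0 mean a lower effect in colitis. All 9 members were below 0, with a median of -1.24 on the log2 scale beside -0.08 for all genes, of which 41.1% were above 0. For the mice numbered 1 to 3 alone 8 of 9 were below 0, with medians of -1.01 and -0.15. Ptprc, the gene of leukocytes in general, was also below 0, with -0.99 (SE 0.62, adjusted p = 1.0 by limma). Cd8a was the 1 of 9 members at the unadjusted limit, with -1.27 (SE 0.57, unadjusted P = 0.0473, adjusted p = 1.0 by limma), beside 2.42% of all tested genes, or 1.72% in the same direction. The interaction was -1.74 (SE 0.93) for Gzmb, -1.26 (SE 0.59) for Cd4 and -1.41 (SE 1.22) for Cd3g. Without colitis mouse 4 receiving BBR it was -1.05 for Gzmb, -1.4 for Cd4 and -0.32 for Cd3g, and without mouse 3 of that group -2.58 for Gzmb. No member passed the adjusted limit by limma, 0 of 9, as did 0.0% of all genes. The unadjusted P of Cd8a in this test lay between 0.00942 and 0.122 over 22 settings of the limma fit and was at the limit in 10 of them.

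The other genes of the T cell and cytotoxic programmes were followed as 4 lists. Among 17 genes of the T cell receptor complex and its proximal signalling, 13 were tested and 0 passed the adjusted limit of limma in any comparison, with 1 higher and 0 lower at the unadjusted limit in colitis, beside 5.56% higher among all tested genes. That gene was Lcp2, an adaptor downstream of the receptor, which stood at 0.42, 0.66 and 0.99 FPKM in the normal mice, and 1.05, 2.46 and 1.24 FPKM in the mice with colitis (log2 difference 1.07, SE 0.42, adjusted p = 0.186 by limma). It stood at 0.53, 0.55 and 0.40 FPKM in colitis mice receiving BBR, below all colitis mice (log2 difference -1.42, SE 0.42, adjusted p = 0.512 by limma). Of all tested genes, 5.66% had separate groups in that direction. Thy1, a surface marker of mouse T cells that stromal cells also carry, differed in the other sense, with 10.9 ± 4.98 FPKM in the normal group and 6.60 ± 2.90 FPKM in the colitis group (SD, n = 3 each, adjusted p = 0.375 by limma). Tcf7, a transcription factor of naive and memory T cells, likewise averaged 1.35 ± 0.621 and 0.713 ± 0.326 FPKM (SD, n = 3 each, adjusted p = 0.371 by limma). The median log2 difference of the list was 0.22 in colitis and -0.27 with BBR in colitis.

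Of 19 genes of costimulation and of helper and regulatory T cells, 16 were tested and 1, Gata3, passed the adjusted limit of limma, in colitis against normal, beside 1.08% of all tested genes. Gata3, the factor of type 2 helper T cells that innate lymphoid cells also use, stood at 0.04, 0.04 and 0.08 FPKM in the normal mice, and at 0.95, 1.54 and 0.44 FPKM in the mice with colitis. It rose by 2.68 on the log2 scale (SE 0.53, adjusted p = 0.0409 by limma), and stood at 0.04, 0.31 and 0.08 FPKM in colitis mice receiving BBR, where the difference from colitis was -2.16 (SE 0.53, adjusted p = 0.454 by limma). The call in colitis was lost on leaving out any 1 of the 3 normal mice or colitis mouse 1 or 2, with adjusted p-values of 0.1 to 0.169 by limma, and with a pseudocount of 0.01 (adjusted p = 0.0657). The reads behind the low values of Gata3 in normal mice were not estimated. Icos, a costimulatory receptor, was higher in colitis mice (0.27 to 0.51 FPKM) than in normal mice (0.11 to 0.17 FPKM) and than in colitis mice receiving BBR (0.07 to 0.18 FPKM), and neither range overlapped with that of colitis mice. Its adjusted p was 0.201 and 0.656 by limma, and 29.3% and 7.08% of all tested genes had separate groups in these comparisons. Tnfrsf9, which encodes the activation receptor 4-1BB, averaged 0.117 ± 0.0666 FPKM in the normal and 0.817 ± 0.616 FPKM in the colitis group (SD, n = 3 each, adjusted p = 0.116 by limma). The list's median log2 difference was 0.41 in colitis, with 13 of 16 higher (26.2% of all genes), and -0.62 with BBR in colitis, with 1 of 16 higher (38.0% of all genes).

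Of 25 cytotoxic granule and natural killer genes, 20 were in the table, 11 were tested and 0 passed the adjusted limit of limma in any comparison, beside 1.08% of all tested genes in colitis. The mean of Prf1, which encodes the pore-forming protein that granzymes need, was below 0.1 FPKM, so it was not tested. Gzmm, a granzyme of natural killer and innate-like T cells, went the other way from Gzma and Gzmb, with 0.88, 0.21 and 0.25 FPKM in the normal mice, and 0.06, 0 and 0.07 FPKM in the mice with colitis (log2 difference -1.76, SE 0.47, adjusted p = 0.0814 by limma). Its normal mean rested in part on mouse 1, and leaving out 1 mouse spanned -2.07 to -1.24. The reads behind these low values were not estimated. Gzmm stood at 0.15, 0.29 and 0.20 FPKM in colitis mice receiving BBR, above all colitis mice (log2 difference 1.14, SE 0.47, adjusted p = 0.704 by limma). In this comparison 7.08% of all tested genes had separate groups. Srgn, the proteoglycan of granules in lymphocytes and myeloid cells, averaged 13.1 ± 1.43 and 48.9 ± 34.4 FPKM in normal and colitis mice (SD, n = 3 each), and Cst7, a protease inhibitor of cytotoxic cells, 0.170 ± 0.149 and 0.883 ± 0.385 FPKM. With a block for the mice numbered 4, Gzmm (adjusted p = 0.0401) and Srgn (adjusted p = 0.0435) passed by limma, as did Srgn for the mice numbered 1 to 3 alone (adjusted p = 0.0374). The median log2 difference of the list was 0.23 in colitis and -0.42 with BBR in colitis.

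All 23 genes of residence, homing and their ligands were tested, and 1, Il15, passed the adjusted limit of limma, in colitis against normal (1.08% of all tested genes) and in colitis under BBR (0.0392%). Il15 encodes a cytokine that epithelial and myeloid cells make and that sustains CD8 T cells of the epithelium. It stood at 17.57, 21.53 and 16.17 FPKM in the normal mice, and 6.31, 6.94 and 6.03 FPKM in the mice with colitis, and fell by 1.5 on the log2 scale (SE 0.26, adjusted p = 0.0276 by limma). It stood at 22.35, 25.71 and 35.87 FPKM in normal mice receiving BBR and 9.47, 5.04 and 8.72 FPKM in colitis mice receiving BBR, and fell between these groups by 1.86 (SE 0.26, adjusted p = 0.0371 by limma). Il15 was thus lower in all 6 mice given DSS than in all 6 given water, while Cd8a was higher in colitis mice than in normal mice without BBR. The first call was lost without any 1 of the 3 normal mice or colitis mouse 1 or 2, with adjusted p-values of 0.0572 to 0.136, and the second without any 1 of 5 mice, with 0.0802 to 0.231, in the limma fit. After quantile normalization the adjusted p-values of Il15 were 0.0572 and 0.11, and after centring on the median 0.0749 and 0.166, so that both calls were also lost to scaling. The log2 differences were then -1.24 and -1.16 in colitis, and -1.56 and -1.41 in colitis under BBR. The second was lost as well with the replicate number as a block (log2 difference -2.01, adjusted p = 0.057 by limma) and with the compared groups fitted alone (-1.86, adjusted p = 0.364 by limma). Itgb2, the shared chain of leukocyte integrins, averaged 2.0 ± 0.787 FPKM in normal, 4.19 ± 1.67 FPKM in colitis and 1.70 ± 0.442 FPKM in colitis mice receiving BBR (SD, n = 3 each). Ccl25, the gut-homing chemokine, averaged 2.13 ± 0.486, 1.01 ± 0.330 and 1.82 ± 0.294 FPKM in the same groups. The medians of the list were 0.39 in colitis and -0.78 with BBR in colitis.

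The members varied together to different degrees over the 12 mice, which share libraries, depth and groups. Among 36 pairs of the 9 tested members, Pearson's r of log2(FPKM + 0.1) had a median of 0.52 and was above 0 in 33. It was 0.86 for Cd3e and Itgae, 0.82 for Cd3g and Gzma, 0.80 for Cd8a and Itgae and 0.80 for Cd8a and Gzmb. With group means removed these were 0.91, 0.87, 0.92 and 0.74. Cd8a and Cd8b1, the chains of 1 coreceptor, had 0.17, and Cd8b1 had -0.37 with Gzma. Few reads stood behind Cd8b1, and the share of counting error in its low values was not tested.

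Among tested genes with a mean of at least 1 FPKM, those most like each member over the 12 mice were named by the same r. Cd3g was most like Ccl5, a T cell and natural killer chemokine, Cd52, a lymphocyte surface antigen, and Dph3, a gene of diphthamide synthesis (all 0.92). Gzma was most like Ccl5 (0.92), Fbxo6 (0.91) and Trim12c (0.91). Cd4 was most like Arhgap30 (0.94), Ifi203 (0.92) and Pld4 (0.92), genes that myeloid cells and B cells also express. Cd8a was most like Ifih1 (0.85), a sensor of double-stranded RNA, followed by Oas2 (0.83) and Ptprc (0.82). Gzmb was most like H2-Aa (0.84), H2-DMb1 (0.83) and Oas2 (0.82), and Itgae was most like H2-Aa (0.80), Selplg (0.79) and Ptprc (0.77), H2-Aa and H2-DMb1 being MHC class II genes. Without the 2 mice farthest from the median of Itgae, Selplg and Ptprc had 0.45 and 0.38. Cd3d had 0.91 with Ifnar2 and 0.87 with Zfp948, and Cd8b1 was most like Flot2 (0.91), Fam219b (0.86) and Ppp1r14b (0.86). For Cd3e the highest r was 0.68 for Lztfl1, 0.67 for Trpv6 and 0.65 for Cep290, which were 0.21, 0.73 and 0.40 without the 2 mice farthest from the median of Cd3e.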

How the data were processed

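Rectal RNA of 12 mice was sequenced by the authors as single-end reads, which were filtered with SOAPnuke, aligned with Bowtie2 2.2.5 and quantified per gene with RSEM 1.2.12 on the build mm9. The library kit and sequencer given in the sample labels differ from those of the methods. The authors deposited 1 value for each gene in each mouse, which was taken to be FPKM. No source used here names the unit, and the values may be TPM. Genes with a mean of at least 0.1 (15315 of 17734) were fitted as log2(FPKM + 0.1) with limma 3.58.1 in R 4.3.3, 1 mean per group and a trend on mean expression, with Benjamini-Hochberg adjustment across the genes tested. The script was tested on simulated data. Exact two-sided permutation tests compared 3 mice with 3. Reads were estimated from steps of low values in genes of 1 transcript, taking 3 reads as the floor, and intervals cover counting error only. Python 3.11.15 with SciPy 1.17.1 and matplotlib 3.10.9 was used for the rest.

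The members and lists were chosen with earlier results of these data known. Of the listed genes, those past the adjusted limit were named, or, where a list had fewer than 3, the 3 with the smallest P in colitis against normal, and for each member up to 3 genes of highest r. Residuals of mice with the same number in normal mice and normal mice receiving BBR correlated (r = 0.29, 0.11 and 0.66), which meets the limit of 0.1 set for pairing, although mice of different numbers there had r from -0.53 to 0.46. Other comparisons share 2 numbers only. Comparisons that share a group are not independent of each other. Alternatives were the pseudocount, the filter on low values, the scaling, the trend, the groups fitted, blocks for the mouse number, and leaving out each mouse.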

Additional observations from a re-analysis of the deposited data

How the results depend on the processing

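By the adjusted limit of limma, 0 members were called in every comparison and alternative run, and the smallest adjusted p of any member was 0.125. Few reads stood behind most members, and each group had 3 mice. At the unadjusted limit, the count of members depended on the settings, and the cause was not tested except where a filter left fewer members.

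In colitis against normal, that count was 1, and it was 0 with a filter at a mean of 1, which left 3 members, and 0 for the mice numbered 1 to 3 alone. It was 2 after quantile normalization (Cd4 joining Cd8a) and 2 with the compared groups alone (Gzmb joining Cd8a), and leaving out 1 mouse gave 0 to 1. With BBR in colitis mice it was 1, and 2 without a filter on low values (Foxp3 joining Cd4), 2 with a block for the mice numbered 4 (Cd3g joining), and 1 to 2 on leaving out 1 mouse: Gzmb joined without colitis mouse 3 receiving BBR (unadjusted limma P of 0.00835) and Cd8b1 without mouse 4 (unadjusted limma P of 0.0361). For colitis under BBR it was 0, and 1 without a trend (Cd4), and 0 to 1 on leaving out 1 mouse, Gzmb passing without colitis mouse 3 receiving BBR. For the interaction it was 1, and 0 with a pseudocount of 0.01, 0 with a filter at a mean of 1, 0 when centred on the median, 2 without a trend, 2 with a block for the mice numbered 4, and 0 to 2 on leaving out 1 mouse.

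With the replicate number as a block, the count was 2 in colitis against normal, 3 with BBR in colitis mice, 1 in colitis under BBR and 4 for the interaction, beside 26.2%, 11%, 22.3% and 5.09% of all tested genes, with 0 members past the adjusted limit. In normal mice, where the numbers met the limit for pairing, the block left the count at 0. The correlation of residuals was on average 0.34 in 13 same-numbered pairs and -0.10 in 41 others.

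Log2 differences that turned sign were all far from the limit. In colitis against normal, Cd3e turned to 0.25 after quantile normalization and to 0.21 when centred, and leaving out 1 mouse spanned -0.54 to 0.17 for Cd3e, -0.30 to 0.66 for Cd3d and -0.08 to 0.59 for Itgae. With BBR in colitis mice, Cd3e turned to 0.02 after quantile normalization, Cd3e to 0.60 and Gzma to 0.34 for the mice numbered 1 to 3 alone, and Thy1 to 0.08 and 0.10 under quantile normalization and centring. Leaving out 1 mouse spanned -0.90 to 0.11 for Cd3d, -0.53 to 0.40 for Cd3e, -1.16 to 0.78 for Gzma, -0.74 to 0.39 for Tcf7 and -0.51 to 0.30 for Thy1. With BBR in normal mice, Cd4 turned to 0.04 after quantile normalization, 0.02 when centred and 0.44 for the mice numbered 1 to 3 alone, and Cd3d turned to 0.11 in the last. Leaving out 1 mouse spanned -0.29 to 0.07 for Cd3d, -0.22 to 0.49 for Cd3e, -0.37 to 0.50 for Cd3g, -0.21 to 0.32 for Cd4, -0.05 to 0.76 for Cd8b1 and -0.22 to 0.94 for Gzma.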

Other observations

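Single mice held the extremes of several members at once. Colitis mouse 2 was the highest of 12 for Cd3d, Cd3g and Cd4, and normal mouse 3 receiving BBR was the highest for Cd8a, Gzmb and Itgae. Colitis mouse 4 was the highest for Cd8b1 and Foxp3, and colitis mouse 3 receiving BBR for Gzma. Summed over the 10 members, these mice held 18.3, 15.3, 8.84 and 16.6 FPKM, beside 5.69 to 8.80 FPKM in normal mice.

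The 9 markers of natural killer cells and innate lymphoid cells summed to 38.3 to 70.7 FPKM in the normal group, 45.9 to 62.1 FPKM in the colitis group, 63.8 to 88.9 FPKM in normal mice receiving BBR and 40.2 to 75.5 FPKM in colitis mice receiving BBR. The 8 mast cell markers summed to 11.6 to 15.0, 16.2 to 25.4, 7.93 to 23.7 and 7.87 to 12.6 FPKM in the same order.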
